A study of Mus musculus with 8 samples.

Results

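The 50 genes described here carry the cell through DNA replication and mitosis. They were taken as a list of names and form 2 sets: 27 genes of the passage from G1 into S phase and of DNA replication (the G1/S set), and 23 genes of G2 and mitosis (the G2/M set). A locus with exactly the listed name was present for 47 of the 50, 25 of the G1/S set and 22 of the G2/M set, among 35494 loci in the table for 1 h and 35541 loci in each of the tables for 8 h and 24 h. Expression of Cdt1 and Gins2, a loading factor and a fork subunit, is not analysed here. Foxm1, a transcription factor of mitotic genes, appeared only in a merged locus with 3 other genes and was left out of all counts.

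The samples were mouse retinal organoids at day 6 of differentiation, grown from an Rx:GFP line in which both endogenous copies of Mettl3 carry an FKBP12F36V-HA degron at the C-terminus. Mettl3 is the methyltransferase subunit that deposits m6A, the N6-methyl mark of adenosine in messenger RNA, and dTAG-13 is a small molecule that directs the tagged protein to the proteasome. The 4 groups were organoids at 0 h (listed as untreated; no solvent is named) and after 1, 8 and 24 h of dTAG-13 at 125 nM, with 2 replicates each, so every group carries the tag and a line without it is not among them. The question the design poses is which polyadenylated transcripts differ after loss of METTL3 protein, here asked of the cell cycle genes. Each time was deposited in a table of its own with 0 h, in which the replicates are pooled into 1 column per condition, so values have no SD and no n and are given with the interval deposited beside them.

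Cyclins D and E with CDK4, CDK6 and CDK2 free the E2F transcription factors from the retinoblastoma proteins, and E2F then drives the genes that license origins, run the replication fork and supply nucleotides. The mitotic genes follow later in the cycle, when the DREAM complex gives way to B-MYB and FOXM1 at promoters with a CHR element (cell cycle genes homology region) and CCAAT boxes. In the early retina, progenitors divide as their nuclei move between the apical and basal surfaces, with mitosis at the apical side.

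The promoters are shown first because they mark how the 2 sets differ in sequence. RefSeq promoters of build GRCm38.p6, from 250 bases before to 50 after the transcription start, were on hand for 37 of the members, 21 of the G1/S set and 16 of the G2/M set. The E2F motif was searched as TTTGGCGC, TTTGCCGC, TTTCGCGC or TTTCCCGC on both strands, the CHR motif as TTTGAA or TTCGAA on both strands, and the CCAAT box as CCAAT on both strands. An E2F match on either strand can overlap one on the other strand, and TTCGAA reads the same on both. The 180 bases before the start are printed for 2 helicase genes of the G1/S set, with E2F matches in capitals, and for 3 genes of the G2/M set, with CHR matches in capitals.
Mcm5 promoter, chr8:75109329-75109508, plus strand: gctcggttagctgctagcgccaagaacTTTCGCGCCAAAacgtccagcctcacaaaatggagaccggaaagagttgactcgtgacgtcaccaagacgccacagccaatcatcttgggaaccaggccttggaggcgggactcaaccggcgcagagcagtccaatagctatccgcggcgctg
Mcm6 promoter, chr1:128359706-128359885, minus strand: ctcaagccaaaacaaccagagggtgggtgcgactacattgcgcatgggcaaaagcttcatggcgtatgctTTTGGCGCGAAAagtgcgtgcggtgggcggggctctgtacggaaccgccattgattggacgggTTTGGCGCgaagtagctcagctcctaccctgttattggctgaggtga
Cdc20 promoter, chr4:118437344-118437523, minus strand: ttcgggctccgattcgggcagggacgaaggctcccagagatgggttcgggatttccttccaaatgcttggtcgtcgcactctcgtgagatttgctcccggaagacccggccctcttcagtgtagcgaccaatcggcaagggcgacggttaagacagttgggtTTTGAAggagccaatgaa
Cdk1 promoter, chr10:69352913-69353092, minus strand: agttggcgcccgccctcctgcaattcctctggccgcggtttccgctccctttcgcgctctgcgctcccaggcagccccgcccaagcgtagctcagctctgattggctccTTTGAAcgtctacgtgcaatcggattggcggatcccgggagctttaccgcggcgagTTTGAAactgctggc
Kif11 promoter, chr19:37376202-37376381, plus strand: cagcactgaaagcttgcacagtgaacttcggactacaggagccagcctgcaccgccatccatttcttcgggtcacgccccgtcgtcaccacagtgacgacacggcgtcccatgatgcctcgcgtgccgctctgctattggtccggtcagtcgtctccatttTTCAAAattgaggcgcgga

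In Mcm5 and Mcm6, matches on opposite strands overlap and appear as 1 longer stretch of capitals, and Mcm6 holds a further match nearer the start. Cdc20 holds a single CHR match at -18 to -13 from the start and Kif11 one at -19 to -14, there as TTCAAA because the element lies on the other strand, and Cdk1 holds 2. An E2F match lay in the promoters of 10 of 21 G1/S genes (47.6%), which were Mcm3, Mcm5, Mcm6, Mcm7, Cdc6, Cdt1, Cdk2, E2f2, E2f3 and Rbl1, and in 1 of 16 G2/M genes (6.25%), which was Cdk1. Over all 27025 genes with a promoter, 2.6% held one (2.26% of 32851 promoters). A CHR match lay in 12 of 16 G2/M genes (75.0%) and in 4 of 21 G1/S genes (19.0%), against 21.7% of all genes (19.2% of promoters), and 4 members held both motifs. CCAAT boxes were present in 87.5% of the G2/M genes, 61.9% of the G1/S genes and 41.1% of all genes (37.4% of promoters). A match is a run of letters and not a mapped binding site, and a missing match says only that these letters are not in this window.

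**Figure D1:**
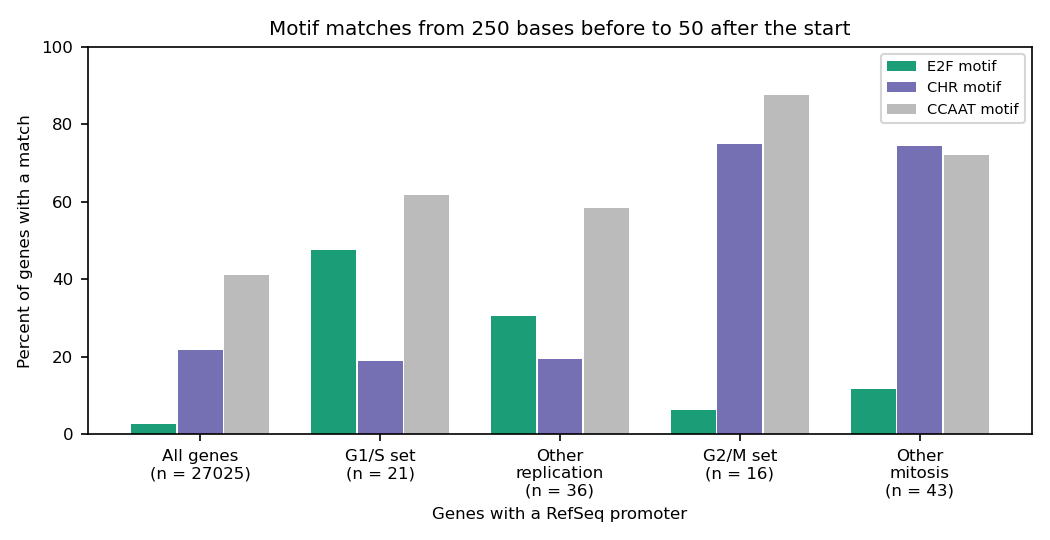
Percent of genes whose promoter holds an E2F, CHR or CCAAT match (vertical axis, percent of genes), for all genes, for the members of each set and for further replication and mitosis genes that are not members. E2F bars stand highest over the 21 G1/S genes at 47.6%, and CHR bars stand at 75.0% over the 16 G2/M genes.

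The sample identity and depth were looked at before the members. Each condition held between 31361518 and 32562075 estimated counts. Levels are in FPKM, fragments scaled by transcript length in kilobases and by the number of mapped fragments. All 10 retinal progenitor markers listed were tested, with Rax at 49.1 FPKM and Lhx2 at 142 FPKM at 0 h in the 1 h table, while 3 of 10 markers of postmitotic neurons reached the test, with a summed FPKM of 9.92, and Pou4f2 was listed at 0. Pluripotency markers were present as well, with a summed FPKM of 323 over 8 of 8 genes. Mettl3 itself stood at 19.2 and 19.1 FPKM at 0 and 1 h, 19.4 and 19.4 at 0 and 8 h, and 19.4 and 17.0 at 0 and 24 h, which is no check of the degron because dTAG-13 acts on the protein.

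At 0 h the members spanned a wide range of levels, from 1.4 FPKM for Cdk6 to 408 FPKM for Cdk4 in the 8 h table, with a median of 70.6 FPKM. Top2a, the topoisomerase that untangles chromosomes, stood at 258 FPKM, Pcna at 248 and Mcm7 at 246. The B-type cyclin Ccnb1 stood at 146 FPKM and its kinase Cdk1 at 189. All 47 members passed the low-level filter at every time, a minimum of 1 FPKM in 1 of the conditions compared. The 0 h level of a member differed by over 5% between the 1 h and 8 h tables for 3 genes, Cdc6, Kif23 and Top2a. For Cdc6, the helicase loader, the 0 h value was 25.02 FPKM in the 1 h table, where its locus is merged with that of Top2a and others, and 37.3 FPKM in the 8 h table. For Top2a the 0 h values were 273 and 258 FPKM in the same tables. For Kif23 they were 64.1 and 70.5 FPKM. The 1 h values of Cdc6, Top2a and Kif23 are therefore uncertain.

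Ratios below are log2 of treated over 0 h within a table, after 0.1 FPKM was added to both, and a gene was called when it differed at least 1.5-fold with deposited intervals that did not overlap. That rule gives no p-value. By it, none of the 47 members was called at 1 h, where 0.402% of 13690 tested loci were called. One member, Cdc20, was called at 8 h and again at 24 h, lower both times, where 4.43% of 13825 and 5.48% of 13910 loci were called in either direction and 0.94% and 1.65% in the lower direction. For every member but Cdc20 the values that follow are sizes and directions below the call.

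**Figure D2:**
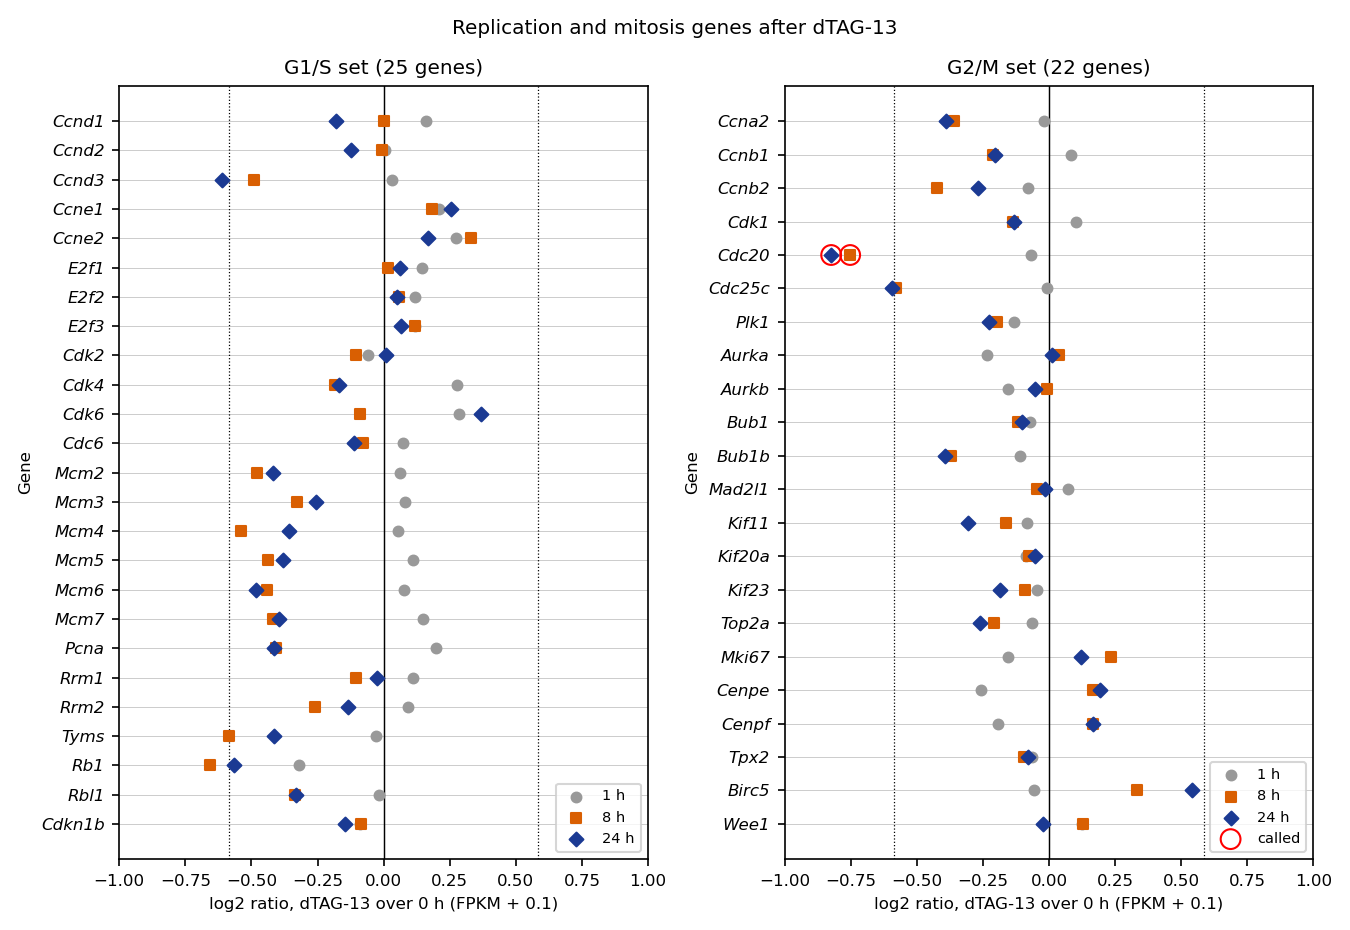
Log2 ratio of treated over 0 h (horizontal axis) for each of the 25 G1/S and 22 G2/M genes at 1 h (grey circles), 8 h (orange squares) and 24 h (blue diamonds), with dotted lines at 1.5-fold and red rings on called values. Cdc20 carries the only rings, at -0.75 and -0.82, and the 6 Mcm genes lie left of 0 at 8 and 24 h and right of 0 at 1 h.

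Cdc20 encodes the activator of the anaphase-promoting complex that the spindle checkpoint holds back (chr4:118432901-118437352 in GRCm38, minus strand, 10 exons), and its promoter with a CHR match is printed above. Its level was 109 FPKM (deposited interval 87.2 to 131) at 0 h and 64.9 FPKM (50.7 to 79.1) after 8 h. In the 24 h table it was 110 FPKM (87.3 to 132) at 0 h and 61.9 FPKM (48.2 to 75.7) after treatment. Both treated intervals lie wholly below those of 0 h. The log2 ratio was -0.75 at 8 h (error 0.21, from the deposited count variances) and -0.82 at 24 h (error 0.21), and it was -0.07 at 1 h. The Cdc20 locus overlaps Elovl1, whose own ratios were 0.25 and 0.40 at 8 and 24 h, opposite in direction. Estimated counts of Cdc20 were 5563 against 3260 at 8 h and 5507 against 3085 at 24 h. Those of Elovl1 were 552 against 661 and 546 against 759. Reads in the overlap cannot be assigned to either gene with certainty, and their part in the ratios was not tested.

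All 8 licensing and fork genes measured had ratios below 0 at 8 and 24 h, as had 48.7% and 47.9% of all tested loci. Among loci with a mean of at least 50 FPKM, 34.3% and 37.6% were above 0 at these times. Mcm2 to Mcm7 encode the 6 subunits of the replicative helicase that is loaded at origins. The summed level of these 6 genes was 832 FPKM at 0 h and 617 FPKM at 8 h, and 835 and 642 FPKM at 0 and 24 h. None of the 6 was called, since each ratio was under 1.5-fold and each pair of intervals overlapped.

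Mcm4 (chr16:15623897-15637400, minus strand) had the lowest ratio of the 6 at 8 h, with 90.1 FPKM (73.1 to 107) at 0 h and 62.0 FPKM (50.3 to 73.7) after treatment, a ratio of -0.54. Mcm2 (chr6:88883474-88898780, minus strand) had 103 FPKM (82.9 to 123) at 0 h against 73.9 (59.2 to 88.7) at 8 h and 77.4 (61.7 to 93.04) at 24 h. Mcm6 (chr1:128331590-128359664, minus strand), whose promoter is printed above, had 111 FPKM at 0 h against 81.7 at 8 h and 79.8 at 24 h. The intervals of Mcm4 at 8 h came nearest to parting, and met by less than 1 FPKM.

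All 6 helicase genes were below 0 at 8 h, from -0.54 to -0.33 with a median of -0.44, and all 6 were below 0 at 24 h, from -0.48 (Mcm6) to -0.26 (Mcm3) with a median of -0.39. At 1 h all 6 were above 0, from 0.05 to 0.15 with a median of 0.08. All tested loci together had medians of 0.01, 0.01 and 0.02 at the 3 times. Loci with a mean of at least 50 FPKM, a level that all 6 exceeded, had medians of 0.07, -0.10 and -0.09. At 1 h the helicase genes thus lay near other well expressed loci. Mcm7, at -0.42 and -0.40, lies in a locus shared with Ap4m1, Cops6 and Taf6, of which Ap4m1 had ratios of -0.71 and -0.55. Comparisons at 8 and 24 h share the 0 h libraries, so the likeness of their values is not independent evidence.

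Pcna, the sliding clamp that tethers polymerases to DNA, stood at 248 FPKM (201 to 296) at 0 h and 187 FPKM (151 to 223) at 8 h. At 24 h it stood at 187 FPKM (150 to 223), a ratio of -0.41 at either time, while its 1 h ratio was 0.20. Cdc6 differed from the helicase genes, with 37.3 FPKM at 0 h against 35.3 at 8 h and ratios of -0.08 and -0.11. Among the 8 licensing and fork genes measured, 7 at 8 h and 6 at 24 h were at least 20% lower, a threshold chosen after the values were seen. Over all tested loci 14.3% and 17.1% were that much lower, and among loci with a mean of at least 50 FPKM 16.2% and 18.8%.

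**Figure D3:**
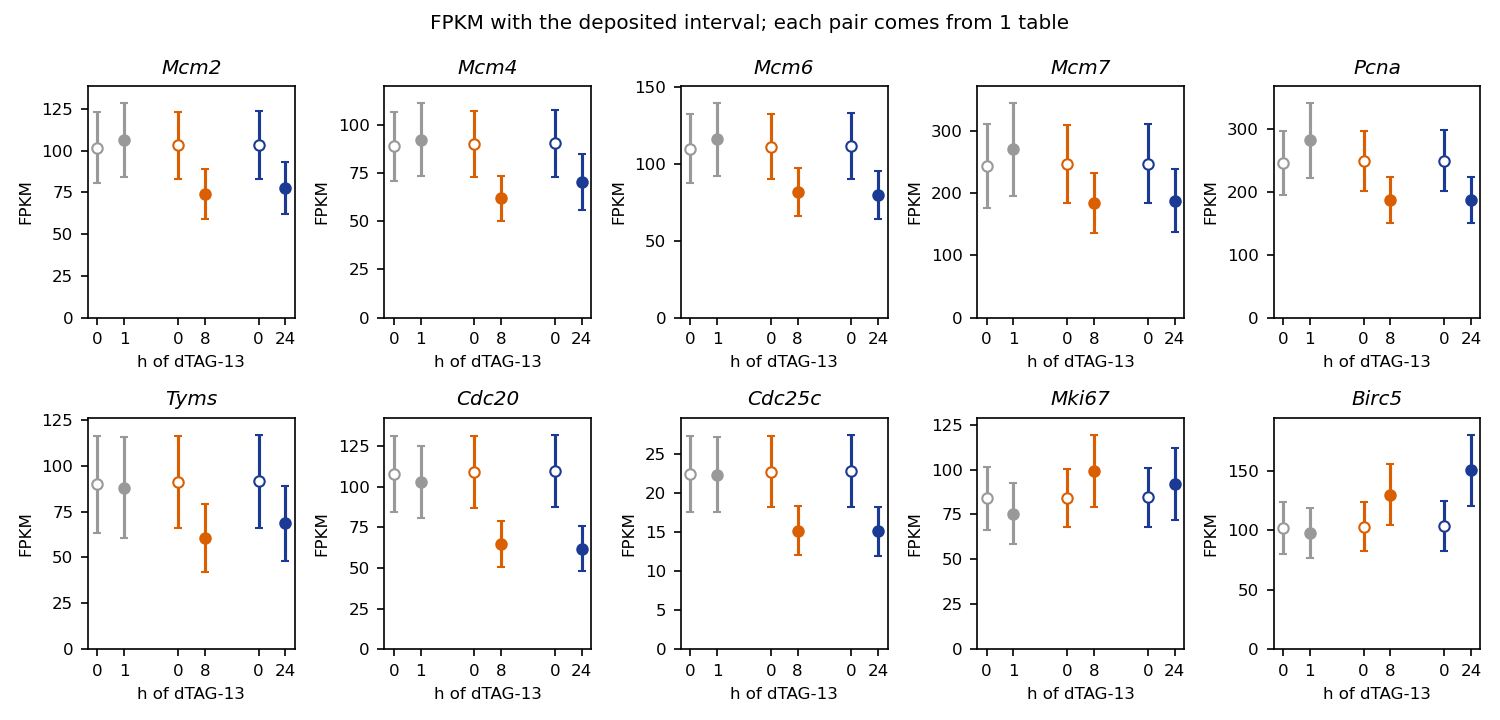
FPKM with the deposited interval (vertical axis from 0) for 10 members at 0 h (open) and after dTAG-13 (filled), each pair from 1 table. Treated points of Mcm2, Mcm4, Mcm6, Mcm7 and Pcna lie under their 0 h points at 8 and 24 h with touching or overlapping intervals, those of Cdc20 part, and Birc5 lies above.

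All 3 nucleotide supply genes lay below 0 at 8 and 24 h, beside 48.7% and 47.9% of all tested loci, and their sizes differed. Tyms, thymidylate synthase, had 91.05 FPKM (65.9 to 116) at 0 h and 60.7 (42.1 to 79.4) at 8 h, a ratio of -0.58, yet its estimated counts gave -0.29. At 24 h the same pair was -0.41 and -0.22, so the size for Tyms depends on the measure. Rrm2, the regulated subunit of ribonucleotide reductase, had ratios of -0.26 and -0.13, and Rrm1, its large subunit, had -0.11 and -0.03.

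The cyclins that open the cycle lay on both sides of 0. Ccnd3 had 103.5 FPKM (76.2 to 131) at 0 h and 73.7 (47.2 to 100.3) at 8 h. For the 24 h comparison the pair was 103.9 against 68.0 (44.3 to 91.8), and the ratios were -0.49 and -0.61. Its locus is shared with Bysl, whose ratios were 0.69 and 0.67. Ccnd1 had 29.4 and 29.5 FPKM at 0 and 8 h and 29.5 and 26.03 FPKM at 0 and 24 h. Ccnd2 had 70.6 against 70.2 FPKM at 8 h and 70.8 against 64.96 FPKM at 24 h, with ratios of 0.01, -0.01 and -0.12 for 1, 8 and 24 h. The E cyclins lay above 0 at every time, with Ccne1 at 0.21, 0.18 and 0.26 and Ccne2 at 0.27, 0.33 and 0.17 for 1, 8 and 24 h, with overlapping intervals throughout.

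Cdk4, the most abundant member, had 403 FPKM (292 to 514) at 0 h and 489 (295 to 683) at 1 h, then 408 against 359 at 8 h and 410 against 364 at 24 h. Cdk2 had ratios between -0.11 and 0.01. For Cdk6, close to the low-level limit, FPKM gave -0.09 and 0.37 at 8 and 24 h while estimated counts gave 0.15 and -0.12, so no direction is given. The activator E2F genes were nearly level, with E2f1 at 0.14, 0.02 and 0.06, E2f2 at 0.12, 0.06 and 0.05, and E2f3 at 0.12, 0.12 and 0.07 for 1, 8 and 24 h.

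Of the brakes on S phase, Rbl1 (p107) had 14.3 FPKM (11.0 to 17.6) at 0 h and 11.3 (8.68 to 13.9) at 8 h, with ratios of -0.33 at 8 and 24 h. Rb1, the retinoblastoma gene, had 11.1 FPKM at 0 h with an interval from 0 to 25.6, and with ratios of -0.66 and -0.57 its treated intervals lay inside that range. Cdkn1b, which encodes the CDK inhibitor p27, had 40.4 against 38.0 FPKM at 8 h and 40.5 against 36.6 FPKM at 24 h, ratios of -0.09 and -0.15. The E2F genes and Cdkn1b lay within 0.15 of 0 at 8 and 24 h, and all 6 helicase genes lay further below.

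Among the mitotic cyclins and their switch, values at 8 and 24 h were lower than at 0 h for Ccna2 (-0.36 and -0.39), Ccnb2 (-0.42 and -0.27), Ccnb1 (-0.21 and -0.20) and Cdk1 (-0.13 and -0.13). Ccna2 pairs with CDK2 and CDK1 in S phase and G2, and the B cyclins with CDK1 at mitotic entry. Cdc25c, the phosphatase that activates CDK1, had 22.7 FPKM (18.1 to 27.3) at 0 h and 15.2 (12.0 to 18.3) at 8 h. For 24 h it had 22.8 (18.12 to 27.4) against 15.0 (11.9 to 18.23) FPKM. At -0.58 and -0.60, Cdc25c came after Cdc20 as the lowest G2/M member at either time, and its intervals overlapped by a narrow margin. Wee1, the kinase that opposes it, had ratios of 0.13 and -0.02 with wide intervals.

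Of the spindle checkpoint genes, Bub1b had 82.0 FPKM (65.4 to 98.7) at 0 h and 63.4 (50.7 to 76.0) at 8 h, with ratios of -0.37 and -0.39 at 8 and 24 h. Bub1 had -0.12 and -0.10, and Mad2l1 had -0.04 and -0.02. The checkpoint genes ranged from a called change in Cdc20, which the others hold in check, to ratios near 0 in Mad2l1. Plk1, a kinase of mitotic entry, had 70.3 against 61.4 FPKM at 8 h and 70.5 against 60.2 at 24 h, while the Aurora kinases Aurka (0.04 and 0.01) and Aurkb (-0.01 and -0.05) and the spindle factor Tpx2 (-0.10 and -0.08) were near 0.

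Birc5, which encodes survivin of the chromosomal passenger complex (chr11:117849251-117855743, plus strand), had ratios above 0 at 8 and 24 h. It had 103 FPKM (82.2 to 124) at 0 h and 130 FPKM (104 to 156) at 8 h, a ratio of 0.33. In the 24 h table it had 103 FPKM (82.1 to 125) against 150 FPKM (120 to 180), a ratio of 0.54 with intervals that overlapped slightly, which was the highest ratio of any member at any time. Its partner Aurkb was near 0, as given above.

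The genes of the large kinetochore proteins and of Ki-67 also lay above 0 at 8 and 24 h, below the call. Mki67, which coats mitotic chromosomes, had 84.2 FPKM (68.1 to 100.3) at 0 h and 99.2 (79.0 to 119) at 8 h. For 24 h Mki67 had 84.5 against 92.0 FPKM. Cenpe had ratios of 0.17 and 0.19 and Cenpf 0.17 and 0.17. The kinesins Kif11 (-0.16 and -0.31), Kif23 (-0.09 and -0.19) and Kif20a (-0.08 and -0.05) and Top2a (-0.21 and -0.26) were below 0. Estimated counts gave -0.08 and -0.03 for Kif23, so its size at 24 h depends on the measure. At 1 h the 3 large genes were below 0, with Mki67 at -0.15, Cenpe at -0.26 and Cenpf at -0.19, the last of them 51.1 against 44.7 FPKM. The merged locus that holds Foxm1 gave 39.5 against 48.7 FPKM at 8 h and 39.6 against 50.9 at 24 h, of which the share from Foxm1 cannot be told.

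The sets were then compared as groups. At 1 h, 20 of 25 G1/S genes had ratios above 0 (median 0.09) and 18 of 22 G2/M genes had ratios below 0 (median -0.07), and the medians differed by 0.16. Over all tested loci 51.6% were above 0 at 1 h, but among the 2154 loci with a mean of at least 50 FPKM the share was 76.9% and the median was 0.07. At that level, 12 of 13 G1/S genes (92.3%, median 0.08) and 3 of 18 G2/M genes (16.7%, median -0.07) were above 0. The G1/S median thus lay near that of well expressed loci. No member was beyond 2 errors of its own ratio at 1 h, where 1.2% of all loci were lower and 0.46% higher by that measure.

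At 8 h the G1/S median was -0.18 (19 of 25 below 0) and the G2/M median was -0.11 (16 of 22 below 0). At 24 h the medians were -0.17 (18 of 25) and -0.12 (17 of 22). Above 0 stood 51.3% of all tested loci at 8 h and 52.1% at 24 h, but 34.3% and 37.6% of loci with a mean of at least 50 FPKM. The sets differed by -0.08 at 8 h and -0.05 at 24 h. Among members with a mean of at least 50 FPKM, a split chosen after the values were seen, the medians were -0.42 for G1/S and -0.12 for G2/M genes at 8 h, a difference of -0.30, and -0.37 and -0.12 at 24 h, a difference of -0.25. Over all settings tried the difference ran from -0.30 to -0.08 at 8 h and from -0.25 to -0.02 at 24 h, so its size rests on which members are counted. With 1 pooled value per condition there is no replicate error for a difference between the sets at any time, and genes are not replicates, so none of these differences was tested.

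**Figure D4:**
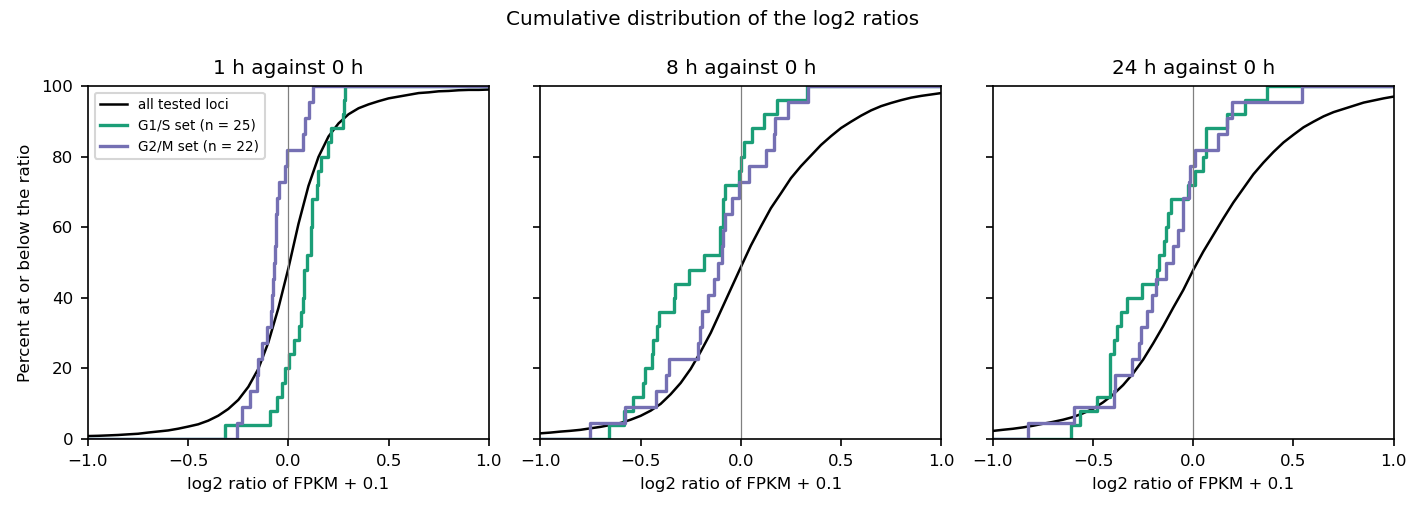
Cumulative percent of genes (vertical axis) at or below each log2 ratio (horizontal axis) for the G1/S set, the G2/M set and all tested loci at 1, 8 and 24 h. At 1 h the sets pass the 50% level on opposite sides of the curve for all loci, with medians of 0.09 and -0.07, and at 8 and 24 h both pass it to the left. Loci with a mean of at least 50 FPKM, not drawn, had a median of 0.07 at 1 h.

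Values at least 20% lower were counted in 16 of 47 members (34.0%) at 8 h and 14 (29.8%) at 24 h, against 14.3% and 17.1% of all tested loci, and values at least 25% higher in 2 and 2, against 21.4% and 23.4%. Of the G1/S set 11 (44.0%) and 10 (40.0%) were at least 20% lower, and of the G2/M set 5 (22.7%) and 4 (18.2%). Well expressed loci leaned lower as a whole at these times, with medians of -0.10 and -0.09 and 16.2% and 18.8% at least 20% lower among loci of at least 50 FPKM. At that level 9 of 13 G1/S members (69.2%) and 4 of 19 G2/M members (21.1%) were at least 20% lower at 8 h, and 8 of 14 (57.1%) and 3 of 18 (16.7%) were at 24 h. These counts describe the list, and the members of a complex such as the helicase are not independent of one another.

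Measured against the error from the deposited count variances, a rule added after the values were seen, 10 members were more than 2 errors lower at 8 h: Mcm2, Mcm4, Mcm5, Mcm6, Pcna, Tyms, Ccnd3, Ccnb2, Cdc20 and Cdc25c. At 24 h 8 were lower, Mcm2, Mcm6, Pcna, Tyms, Ccnd3, Bub1b, Cdc20 and Cdc25c, and Birc5 was higher. Over all tested loci 4.46% at 8 h and 6.48% at 24 h were lower by this rule, and 10.8% and 10.7% were higher. These shares cover loci of every level tested. They were not taken among well expressed loci, which leaned lower and are nearer the members in level. Helicase and clamp genes thus made up 5 of the 10 at 8 h.

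The genes' structure was compared with the ratios as a description. Members had a median of 6.5 exon junctions per kb of coding sequence, and the values for all genes were 6.15 to 6.17. Mki67 and Cenpf have the longest internal exons among the members tested, at 6836 and 3428 bases, with 1.36 and 1.78 junctions per kb, and both had ratios above 0 at 8 h. Cdkn1b, with 1.69 junctions per kb, did not (-0.09), and Birc5, with the highest member ratio at 8 h, has 7.14. The rank correlation of junction density with the 8 h ratio was -0.18 over 47 members and -0.47 over 11185 genes, which share libraries and depth. With the 24 h ratio it was -0.08 over members and -0.39 over 11188 genes. For the longest internal exon the correlation over members was -0.16 at 8 h and -0.23 at 24 h. Over all genes it was 0.10 and 0.05, so Mki67 and Cenpf do not stand for the members.

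**Figure D5:**
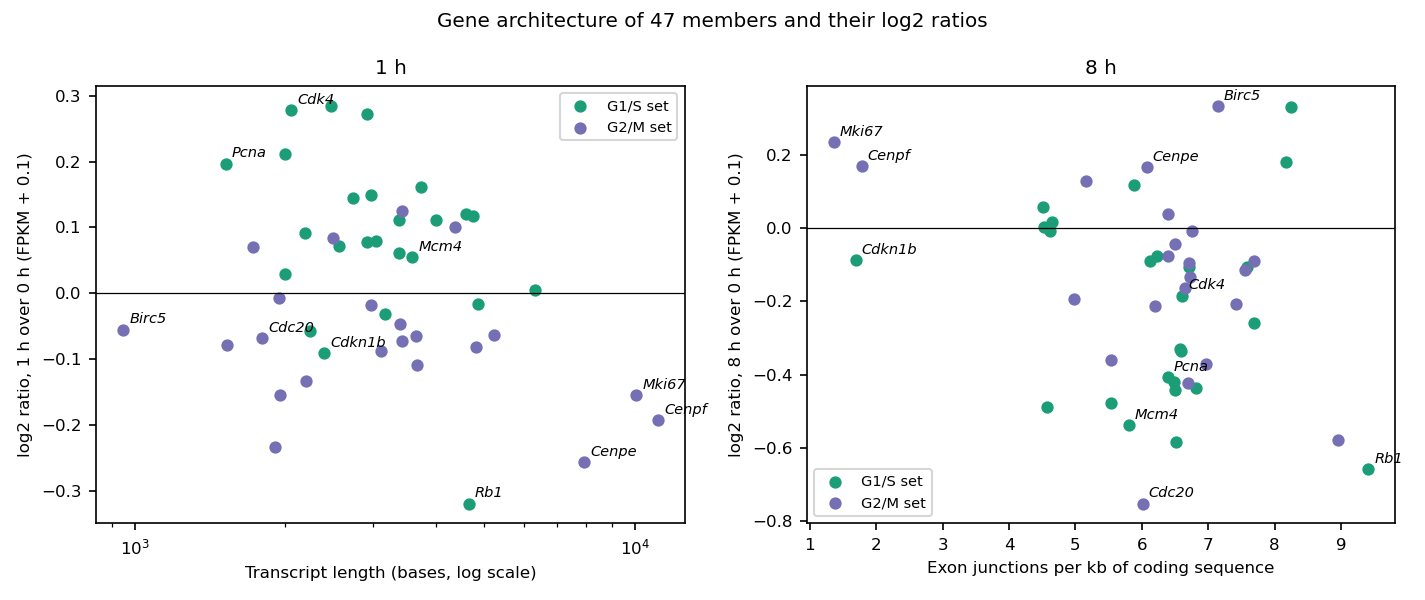
Log2 ratio at 1 h against transcript length (left, log axis, bases) and at 8 h against exon junctions per kb of coding sequence (right), 1 point per member, G1/S green and G2/M violet. Mki67 and Cenpf, at 1.36 and 1.78 junctions per kb, lie above 0 at 8 h, Cdkn1b at 1.69 lies at -0.09, and most members lie between 4 and 9 junctions per kb.

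Further genes of the same pathways were taken from lists of names. Of 42 other replication genes tested at 8 h, 31 were below 0 (median -0.12), beside 48.7% of all tested loci, and 1 was called. That was Fen1, the flap endonuclease of Okazaki fragment maturation. It rose from 63.1 FPKM (49.7 to 76.4) to 118 (94.8 to 142), a ratio of 0.91. At 24 h Fen1 was called again (0.92) together with Tk1, the salvage thymidine kinase, which rose from 42.9 FPKM to 93.5 (1.12). Both loci overlap another gene. Fen1 has no junction in its coding sequence, and Tk1 has 8.58 per kb. The 2 replication genes called were both higher, while the helicase genes, with values below 0, were not called. Most called loci were higher too: of 612 called over all tested loci at 8 h 130 were lower, and of 762 at 24 h 229 were lower.

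Of 48 other mitosis genes, 1 was called, at 8 and 24 h, where 0.94% and 1.65% of all tested loci were called lower. It was Cdca8, which encodes borealin of the chromosomal passenger complex. Cdca8 had 91.5 FPKM (73.1 to 109.8) at 0 h and fell to 60.1 (47.7 to 72.5) in the 8 h table. At 24 h Cdca8 was at -0.61, a call that was lost when estimated counts replaced FPKM. Its locus overlaps 9930104L06Rik, so reads in the overlap cannot be assigned with certainty. Incenp, the scaffold of the same complex, was not called, with 52.7 against 51.9 FPKM at 8 h and 52.9 against 51.02 FPKM at 24 h. Thus of 4 passenger complex genes, Cdca8 fell, Birc5 had ratios above 0, and Aurkb and Incenp lay near 0. At 1 h 36 of the 48 were below 0, with a median of -0.08, beside 18 of the 22 G2/M members. Over all tested loci 48.4% were below 0 at 1 h, and 76.9% of loci with a mean of at least 50 FPKM were above 0.

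Of 45 other cell cycle regulators tested, Cdkn1a, the CDK inhibitor p21, had 48.1 FPKM (37.5 to 58.6) at 0 h, fell to 20.1 (15.6 to 24.5) at 8 h, and in the 24 h table fell from 48.2 to 26.4 FPKM. Ccng1, a cyclin G gene that like Cdkn1a is a known p53 target, fell by 0.76 and 0.72 on the log2 scale. Cdkn2d, the CDK4 and CDK6 inhibitor p19, rose from 12.5 to 19.6 FPKM at 8 h and, in the 24 h table, from 12.6 to 22.4 FPKM, and its call at 8 h was lost with estimated counts. Fbxo5, which restrains the anaphase-promoting complex, rose from 48.4 to 74.1 FPKM at 8 h and was not called at 24 h (0.55). Ccng2 fell at 1 h, from 28.0 FPKM (21.6 to 34.5) to 14.8 (11.4 to 18.2), and was at -0.01 at 8 h. The CDK inhibitor genes Cdkn1a and Cdkn2d thus changed in opposite directions, and Cdkn1b, the member among such genes, was not called. Cdkn1c, Cdkn2a, Cdkn2b and Cdkn2c, listed as well, were not called at any time.

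Markers of cell types moved over the same times. Retinal progenitor markers had a summed FPKM of 768 at 0 h against 961 after 8 h, and of 771 against 1020 in the 24 h table, with 10 and 9 of 10 above 0 and Rax and Lhx2 called higher at 24 h. The 8 pluripotency markers had 327 against 290 at 8 h and 329 against 216 at 24 h, with Dppa5a and Tdgf1 called lower at 24 h. At either time 2 of the 8 were above 0 and 6 below, with medians of -0.17 and -0.23 at 8 and 24 h. Over all tested loci 51.3% and 52.1% were above 0 at these times. Of 8 surface ectoderm and lens markers 3 were tested, with Krt8 and Cryab called lower at 24 h. Mesoderm and endoderm markers, with 4 of 8 tested, were all above 0 at 8 and 24 h (medians 0.46 and 0.41). Their summed level was low, 4.62 and 4.63 FPKM at 0 h in the 8 h and 24 h tables, and none was called. Telencephalon markers, with 2 of 6 tested, had 1 above and 1 below 0 at either time. The 3 neuron markers tested had a summed 10.1 against 9.9 FPKM at 8 h and 10.1 against 8.68 at 24 h, where 0 of 3 were above 0 (median ratio -0.27) and none was called. The part of these cell types in the members' values was not tested, and in bulk organoids fewer cells of a type and less RNA per cell cannot be told apart.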

How the data were processed

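Polyadenylated RNA of 8 samples (4 groups, 2 replicates each, grouped by their titles) was sequenced. Per the file headers, the authors deposited 3 pairs of tables, a pair for each treated time with 0 h. Of each pair, 1 table gives FPKM, the limits of an interval around it and a quality status, and its companion gives the authors' estimated counts and a variance for each. Cufflinks 2.2.1, Cuffdiff and build mm10 are named in the submitters' processing notes. The level of the interval is not given in the sources used here, and its half-width was a median of 2.16 deposited SD. The labels' protocol names several library rounds and a 2 h treatment, which the tables analysed here do not separate or hold. Replicates were pooled by the authors, so no count model or p-value was possible. Each table was normalized on its own, and ratios were formed within tables.

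A locus was tested with status OK and at least 1 FPKM in 1 condition. Of rows sharing a member's name (Ccne2, Rb1), the one with most counts was used. Errors of ratios are delta-method values from the deposited count variances. The count-based alternative used counts plus 1, at least 10 counts, and intervals of 2 SD from those variances, since the tables hold no count intervals. Gene structure came from GENCODE M21 (GRCm38), with the representative transcript taken by APPRIS rank and then longest coding sequence, and promoters from RefSeq GRCm38.p6. Genes singled out by name were the called ones, the highest and lowest members and fixed representatives of each role; all other members are given in role order. The members and lists were chosen with earlier results of these data known. The call rule was tested on simulated tables. Their noise came from the deposited 0 h count variances and their planted changes exceeded the call threshold. That test therefore does not cover variation between replicates or changes near the threshold. Computation used Python 3.11.15, pandas 2.3.3, numpy 2.4.6 and scipy 1.17.1.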

Additional observations from a re-analysis of the deposited data

How the results depend on the processing

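No paired analysis was possible because the tables hold 1 pooled column per condition, and for the same reason no replicate could be left out. Members called at 8 h and 24 h numbered 1 and 1. They numbered 0 and 0 of 36 without loci that overlap another expressed gene, which removes Cdc20, 0 and 0 at 2-fold, and 2 and 3 at 1.5-fold without intervals. They numbered 18 and 16 of 47 at 20% lower or 25% higher without intervals (beside 35.7% and 40.6% of all tested loci), and 10 and 9 by 2 errors; these last rules were added after the data were seen. At 1 h all settings gave 0. Over all tested loci, 4.43% and 5.48% called became 13.7% and 17.0% at 1.5-fold without intervals, and 15.3% and 17.2% by 2 errors.

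For the other pathway genes, 1, 6 and 6 were called of 134, 135 and 135 at 1, 8 and 24 h, beside 0.402%, 4.43% and 5.48% of all tested loci. At 2-fold the counts became 0, 1 and 1, beside 0.285%, 1.57% and 2.14% of all tested loci. They were 5, 45 and 46 at 20% lower or 25% higher without intervals, beside 14.7%, 35.7% and 40.6%. By 2 errors they were 2, 27 and 30, beside 1.66%, 15.3% and 17.2%. Without intervals at 1.5-fold, 10 were called at 8 h and 10 at 24 h, and 3 of 96 were called at 24 h without overlapping loci. With loci of at least 50 FPKM alone, added after the data were seen, 0 of 48 were called at 1 h, the G1/S median at 8 h was -0.42, and the G1/S minus G2/M difference was -0.30 at 8 h and -0.25 at 24 h. Set medians and their differences kept their sign under all settings run.

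Of 557 values for 26 singled-out genes, 550 kept direction and side of the call. Counts in place of FPKM turned Cdk6 to 0.15 at 8 h and -0.12 at 24 h and Ccng2 to 0.0011 at 8 h, and centring turned Ccnd1 to -0.0079 at 8 h. By counts Cdkn2d (8 h) and Cdca8 (24 h) were no longer called and Tk1 (8 h) was. The causes were not tested. A gene of the median error, 0.20 on the log2 scale, would need a change well above the ratios of most members to be called.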

Other observations

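Transcript length varied with the 1 h ratio. Over 11040 genes the rank correlation was -0.24, over the 47 members -0.16, over the 25 G1/S members -0.29 and over the 22 G2/M members -0.25, as a description of genes that share libraries and depth. The median transcript was 2960 bases in the G1/S set and 3250 in the G2/M set. The 3 members with the longest transcripts, Cenpf (11130 bases), Mki67 (10061) and Cenpe (7910), had 1 h ratios of -0.19, -0.15 and -0.26, and Birc5, with the shortest (947 bases), had -0.05. At 8 h the correlation over all genes was 0.15.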
